A study of Mus musculus with 12 samples.

Results

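The genes described here are those of DNA damage repair and of the p53 response, a list of 47 symbols of which 28 belong to damage signaling and repair and 19 to the p53 network. Of the 47, 43 had a probe set to which the array's annotation gives that symbol alone (27 repair members and 16 p53 members, out of 22180 genes so named), and each gene was read from its probe set of highest mean over the 12 arrays. The annotation gives Fanca, Gadd45a and Ddb2 only together with other symbols. It gives no probe set the symbol Trp53, which was therefore not analysed here. Eda2r, a death receptor gene induced by p53, lay among the dimmest 25% of probe sets (4.49 to 4.68 over the 12 arrays) and was not tested, which left 27 repair members and 15 p53 members in every comparison. Values are log2 intensity throughout, a scale on which a difference of -1 is a halving, and a level on one probe set cannot be set against a level on another.

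The arrays hold RNA from a mouse acute myeloid leukemia driven by MLL-AF9, a fusion oncoprotein that turns blood progenitors into leukemia-initiating cells. Bone marrow progenitor or stem cells expressing MLL-AF9, either AMPKfl/fl (wild type) or AMPKΔ/Δ (knockout for AMPK, the kinase that senses low cellular energy), were injected at 50000 cells into recipients irradiated with 10 Gy, and each recipient's marrow was taken when its leukemia appeared. From it 5000 cells were sorted, either all GFP+ leukemia cells (whole leukemia) or L-GMP, the GFP+ lin- c-kit+ CD16/32+ CD34+ fraction, which resembles granulocyte-macrophage progenitors and is enriched for leukemia-initiating cells. There were 4 groups of 3 arrays: wild-type and knockout whole leukemia, and wild-type and knockout L-GMP. Strain C57BL/6J, MLL-AF9 and the irradiated host are common to all 4 groups, so no array shows these genes in unirradiated or non-leukemic marrow. The labels do not say which AMPK gene was deleted, by which Cre, at what age, or whether replicates are separate recipients, so a p-value here sets a difference against the scatter of these arrays, some of which may be technical.

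Cells answer broken or stalled DNA with the kinases Atm, Atr and DNA-PK, which act through Chek1 and Chek2 to halt the cycle and recruit repair. The same kinases free p53 from its inhibitors Mdm2 and Mdm4, and p53 then switches on genes for arrest, repair and death, Mdm2 itself among them. In MLL-AF9 leukemia this response is known as a limit on how leukemia cells tolerate replication stress and chemotherapy, and many of the repair genes are transcribed most strongly in dividing cells.

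Promoter sequence was matched to 33 of the member genes, in 39 windows of 300 bases (250 before and 50 after an annotated start, from RefSeq, GRCm38.p6). A p53 half-site was found in 7 of the 16 windows of p53 members (43.8%), in none of the 23 windows of repair members, and in 8.36% of all 32851 windows. These 7 windows belong to 6 of the 12 p53 members with a window: Cdkn1a, Mdm2, Ccng1, Ppm1d, Aen (overlapping windows) and Polk. The p53 members were listed as p53 regulators and targets, so a raised share of half-sites among them is no separate result. An E2F site, the motif of a factor family that drives S-phase genes, was searched as TTTNNCGC on both strands and lay in 5 of the 23 repair windows (21.7%) and in 5.17% of all windows. The 250 bases before the start of 5 of these genes are given below, because p53 half-sites were found in p53 members alone and E2F sites mainly in repair members. Capitals mark the p53 half-site in Cdkn1a (chr17:29090729-29090978, plus strand), Mdm2 (chr10:117710759-117711008, minus strand) and Ccng1 (chr11:40755287-40755536, minus strand), and the E2F site in Brca2 (chr5:150522371-150522620, plus strand) and Mdc1 (chr17:35841248-35841497, plus strand).
Cdkn1a: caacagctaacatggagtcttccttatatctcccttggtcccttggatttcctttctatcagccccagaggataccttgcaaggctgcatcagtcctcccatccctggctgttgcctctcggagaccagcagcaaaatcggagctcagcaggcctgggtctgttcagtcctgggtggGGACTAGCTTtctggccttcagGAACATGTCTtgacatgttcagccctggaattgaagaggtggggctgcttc
Mdm2: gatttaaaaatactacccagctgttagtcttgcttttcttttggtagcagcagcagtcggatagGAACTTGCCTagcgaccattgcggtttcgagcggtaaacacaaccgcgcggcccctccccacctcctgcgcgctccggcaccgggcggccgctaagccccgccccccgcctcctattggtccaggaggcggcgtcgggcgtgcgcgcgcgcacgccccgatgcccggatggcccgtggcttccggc
Ccng1: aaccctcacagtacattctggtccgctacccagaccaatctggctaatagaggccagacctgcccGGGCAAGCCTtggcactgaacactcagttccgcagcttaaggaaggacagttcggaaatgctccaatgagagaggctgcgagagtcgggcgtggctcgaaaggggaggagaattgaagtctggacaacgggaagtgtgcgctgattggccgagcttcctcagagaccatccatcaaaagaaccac
Brca2: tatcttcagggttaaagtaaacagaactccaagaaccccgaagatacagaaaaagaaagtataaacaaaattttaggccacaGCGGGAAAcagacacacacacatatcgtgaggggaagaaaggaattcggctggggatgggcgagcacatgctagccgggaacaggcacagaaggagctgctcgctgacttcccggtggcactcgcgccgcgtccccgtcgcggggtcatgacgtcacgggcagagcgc
Mdc1: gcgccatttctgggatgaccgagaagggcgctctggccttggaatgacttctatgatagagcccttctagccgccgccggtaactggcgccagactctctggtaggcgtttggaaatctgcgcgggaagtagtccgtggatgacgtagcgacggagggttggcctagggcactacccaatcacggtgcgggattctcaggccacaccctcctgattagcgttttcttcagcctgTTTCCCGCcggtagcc
The Cdkn1a window holds a pair of half-sites that start 73 and 51 bases before the transcription start, and the other 4 stretches hold 1 match each to the motif shown in capitals. The Mdm2 window also holds an E2F site, left in lower case, and Mdm2 was the only p53 member with one. A second annotated Cdkn1a start has none. The CCAAT box (CCAAT, both strands) was in 51.3% of member windows and 37.4% of all windows, and the CHR element of mitotic genes (TTTGAA, both strands) in 5.13% and 17.9%. A match is a description of letters and does not show that a factor binds there.

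As a check of the labels, Prkaa1, which encodes a catalytic subunit of AMPK, measured 8.69, 7.72 and 8.32 in wild-type and 7.40, 7.45 and 6.95 in knockout whole leukemia, and 8.33, 7.99 and 8.12 in wild-type and 7.31, 6.83 and 6.87 in knockout L-GMP. In both populations the 3 knockout values were the lowest 3, with differences of -0.98 in whole leukemia and -1.15 in L-GMP that did not pass adjustment over all genes (limma adjusted p = 0.592 and 0.622). Prkaa2, the other catalytic subunit gene, stayed near the dim end, at 4.66 to 5.05 over the 12 arrays. Several arrays stood apart. Erythroid markers (8 of 12 tested) had a median level of 9.36 in knockout whole leukemia 2 against 5.02 to 5.8 in the other whole arrays, and mast cell, basophil and eosinophil markers (8 of 10 tested) one of 8.3 in knockout L-GMP 2, where the remaining L-GMP arrays had 5.04 to 5.59. The median of 21 G2/M genes was 6.55 in knockout whole leukemia 3 and 6.67 in knockout L-GMP 3, against 7.47 to 8.59 in the remaining arrays. Neutrophil markers (11 of 12 tested) had medians of 5.82 to 6.46 in 5 of the L-GMP arrays and 8.91 in wild-type L-GMP 3, within the 7.43 to 11.59 of whole leukemia, although the sort excluded lineage-positive cells.

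No member of either group passed the test between genotypes. In L-GMP the repair members were mostly lower in the knockout, 21 of 27 with a median difference of -0.14, while 45.2% of all genes tested were lower and their median difference was 0.02. The p53 members were divided, 8 of 15 lower with a median of -0.03. Whole leukemia gave a similar pair of values. There 20 of 27 repair members were lower (median -0.19), against 50.4% of all genes (median near 0). Of the p53 members 7 of 15 were lower (median 0.04). L-GMP are a fraction of the GFP+ leukemia cells, and the labels do not say whether both populations came from the same recipients. The genotype differences in the populations may therefore not be independent. By limma with Benjamini-Hochberg adjustment over 17749 genes, 0 of 42 members were called at an adjusted p under 0.05 in L-GMP, where 0.00563% of all genes were called, and 0 of 42 in whole leukemia, where 0% were. At an unadjusted p under 0.05, 1 member passed in L-GMP (2.38% of members against 4.13% of all genes) and 2 in whole leukemia (4.76% against 5.97%), so neither share was above that of the array as a whole. Monocyte and macrophage markers were lower by mean in the knockout for 13 of 14 in whole leukemia (median -0.99) and 13 of 14 in L-GMP (median -0.55), and neutrophil markers were higher for 11 of 11 in knockout whole leukemia (median 1.75). G1/S genes were lower by mean for 17 of 19 in knockout L-GMP (median -0.18) and 11 of 19 in knockout whole leukemia (median -0.06). G2/M genes were lower for 21 of 21 (median -0.5) and 16 of 21 (median -0.15), in the same order. The part of these lists in the members' values was not tested. In these bulk samples, fewer cells of one type and less RNA per cell cannot be told apart.

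**Figure D1:**
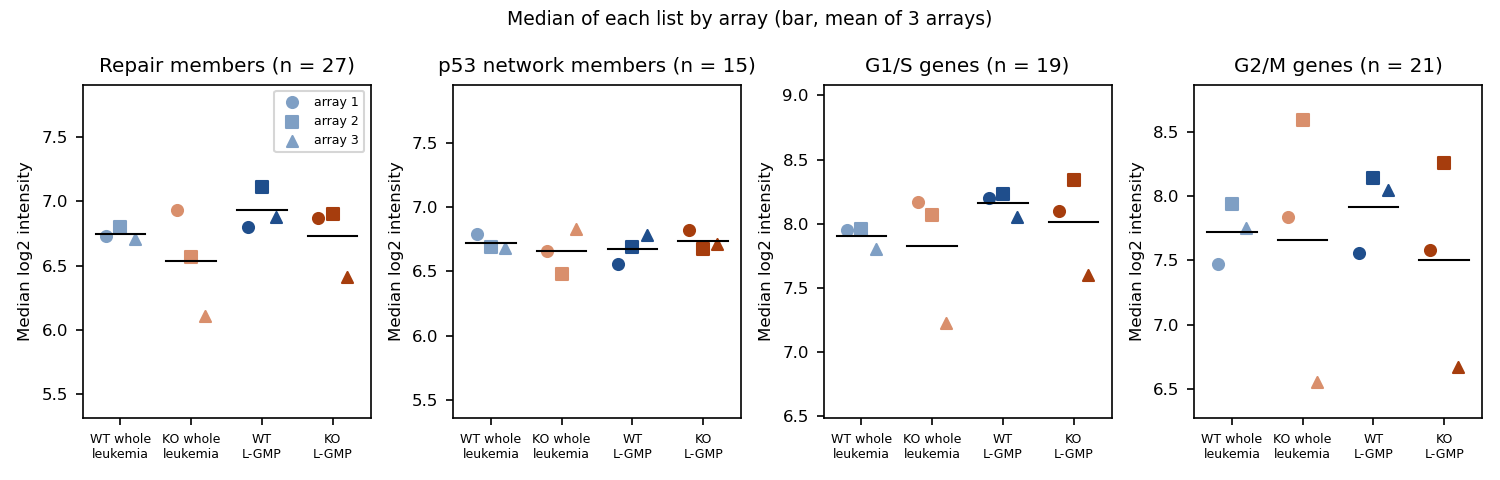
Median log2 intensity of the 27 repair members and the 15 p53 members in each of the 12 arrays, 1 point per array with the group mean as a bar, beside the same median for the G1/S and G2/M gene lists. Knockout whole leukemia 3 and knockout L-GMP 3 have the lowest repair medians (6.11 and 6.41) and also the lowest G2/M medians (6.55 and 6.67), while the p53 medians span 6.48 to 6.83.

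The median level of the repair members showed which arrays lay behind those counts. It was 6.73, 6.80 and 6.71 in wild-type and 6.93, 6.57 and 6.11 in knockout whole leukemia, and 6.80, 7.11 and 6.88 in wild-type and 6.87, 6.90 and 6.41 in knockout L-GMP. Knockout whole leukemia 1 thus had the highest repair median of its population, and the genotypes overlapped in both populations. Knockout L-GMP 3 held the lowest of the 6 L-GMP values for 16 of 27 repair members, and for 16.1% of all genes, but for only 1 of 15 p53 members. In the same array 16 of 19 G1/S genes and 20 of 21 G2/M genes were at their lowest. Knockout whole leukemia 3 was lowest of the 6 whole arrays for 9 repair members (12% of all genes), 17 of 19 G1/S genes and 21 of 21 G2/M genes. Knockout whole leukemia 2, the array with high erythroid markers, was lowest for 12 repair members and 6 p53 members (28.2% of all genes), and there 19 of 21 G2/M genes were at their highest. The part of proliferation genes or of other cell types in the repair values was not tested. The repair median difference in L-GMP went from -0.14 to -0.05 without knockout L-GMP 3 and -0.07 without wild-type L-GMP 2, and to -0.26 without knockout L-GMP 2 and -0.25 without wild-type L-GMP 1. That in whole leukemia went from -0.19 to -0.31 without knockout whole leukemia 1. The sign of the repair median was negative whichever single array was left out, in both populations.

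**Figure D2:**
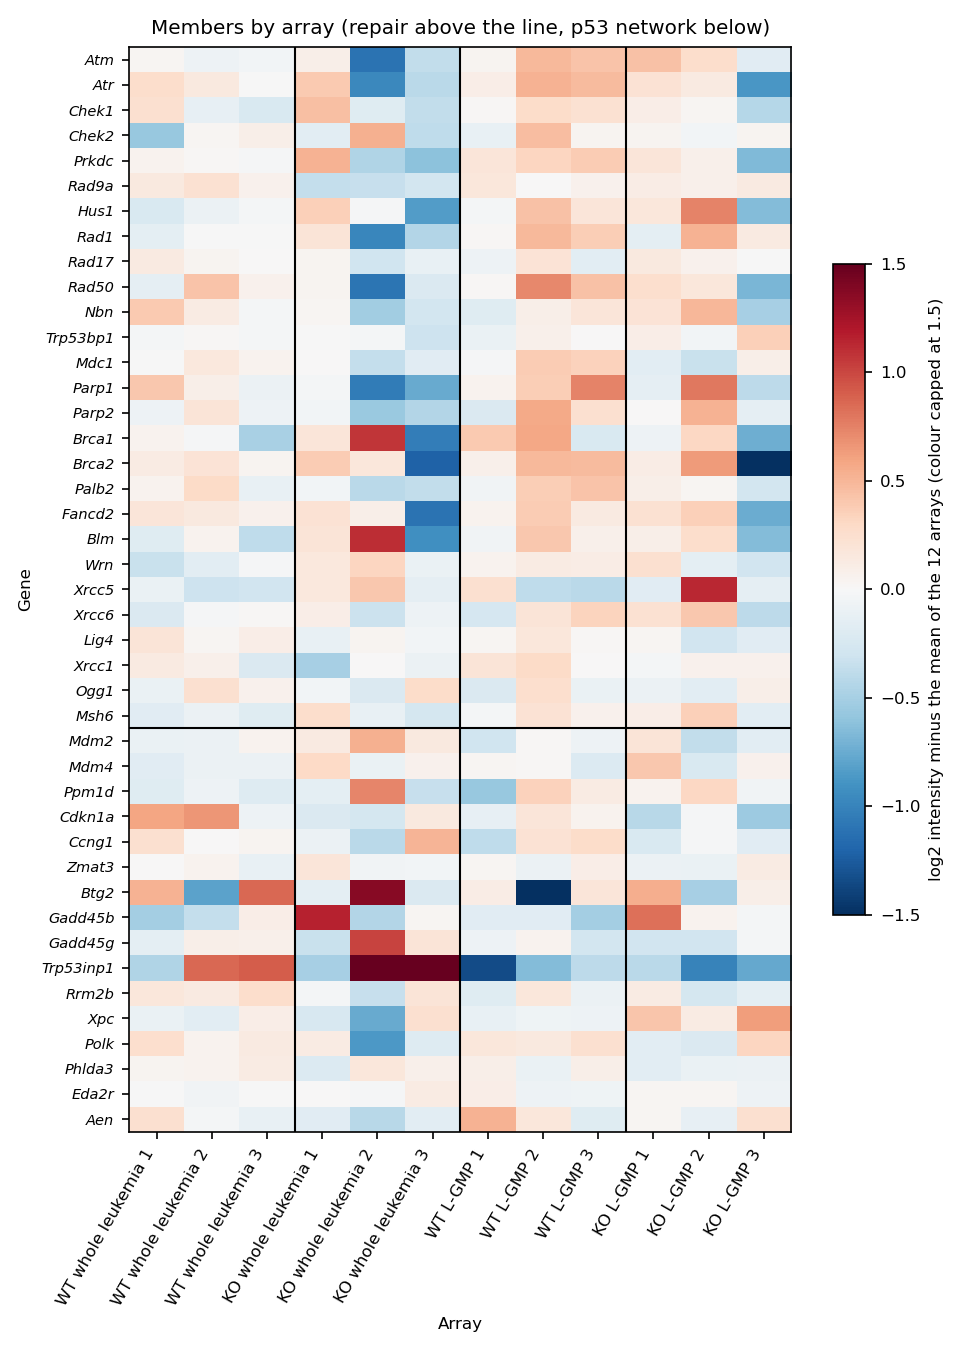
Level of each of the 43 members in each array as its deviation, in log2 units, from that gene's own mean over the 12 arrays, with members in rows by role and arrays in columns by group. Low values run through many of the 27 repair rows in knockout whole leukemia 2 and 3 and knockout L-GMP 3, and in knockout whole leukemia 2 also through several p53 rows below the line (12 repair and 6 p53 members had their lowest whole leukemia value there).

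The list of other repair genes, 66 tested genes outside the 27, was lower in the knockout for 42 genes in L-GMP (median -0.07) and 45 in whole leukemia (median -0.06). None of them passed adjustment. At an unadjusted p under 0.05 by limma there were 5 of 66 in L-GMP (4.13% of all genes), 3 lower and 2 higher. The lower 3 were Fancb (difference -0.39), a Fanconi anemia core gene, Brip1 (-0.70), the helicase partner of Brca1, and Smc6 (-0.51), a subunit of a chromosome maintenance complex, and Rev1 (0.47), a polymerase that copies past lesions, was among the higher ones. Brip1 measured 6.83, 7.01 and 6.63 in wild-type L-GMP and 6.44, 6.52 and 5.42 in the knockout, so that knockout L-GMP 3 was again the lowest. In whole leukemia 1 of 66 passed that level (5.97% of all genes). Those of lowest p there, most of them above that level, were Neil1 (-0.24), a base excision glycosylase, Parp3 (-0.65), Msh3 (-0.31) and Rev1 (0.42). The list of 22 other p53 targets had medians of -0.02 and -0.03, with Psrc1 (-0.20) and Pidd1 (-0.22) first in L-GMP and Fas (0.76), a death receptor, first in whole leukemia. Fas rested on knockout whole leukemia 2 and 3: it measured 6.14, 5.69 and 5.95 in the wild type and 6.01, 7.34 and 6.71 in the knockout.

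Among the damage kinases, all 5 were lower in knockout L-GMP by mean, with overlap for all but Prkdc. Atm, the kinase activated by double-strand breaks, measured 6.34, 6.24 and 6.27 in wild-type and 6.40, 5.21 and 5.94 in knockout whole leukemia, and 6.35, 6.80 and 6.74 in wild-type and 6.75, 6.58 and 6.15 in knockout L-GMP. Its lowest value was in knockout whole leukemia 2, and the genotypes overlapped in both populations, with differences of -0.43 (SE 0.27) and -0.14 (SE 0.27). Without knockout L-GMP 3, the L-GMP difference was 0.03. Atr, the kinase of stalled forks, measured 6.73, 6.62 and 6.46 in wild-type and 6.87, 5.5 and 6.07 in knockout whole leukemia, and 6.57, 6.99 and 6.95 in wild-type and 6.69, 6.61 and 5.6 in knockout L-GMP. The differences were -0.46 (SE 0.35) and -0.54 (SE 0.35, limma adjusted p = 1.0), with 1 knockout array far below the rest in each population, and a second, dimmer Atr probe set gave -0.19 in both. With that 1 array left out, knockout whole leukemia 2 or knockout L-GMP 3, the difference was -0.14 in whole leukemia and -0.19 in L-GMP. Prkdc, the catalytic subunit of DNA-PK, was the only repair member whose L-GMP arrays did not overlap in the lower direction, which was the case for 3.66% of all genes. It measured 6.65, 6.79 and 6.85 in wild-type and 6.65, 6.54 and 5.80 in knockout L-GMP, where the nearest arrays of the genotypes were equal to 2 decimals and knockout L-GMP 3 was far below the rest.

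The differences of the effector kinases were small. Chek1, which Atr activates, measured 6.37, 6.01 and 5.91 in wild-type and 6.58, 5.95 and 5.76 in knockout whole leukemia, and 6.15, 6.41 and 6.36 in wild-type and 6.23, 6.16 and 5.71 in knockout L-GMP. The difference was 0.00 in whole leukemia and -0.27 (SE 0.22) in L-GMP. Chek2, which Atm activates, measured 5.80, 6.39 and 6.45 in wild-type and 6.21, 6.90 and 5.99 in knockout whole leukemia, and 6.26, 6.83 and 6.41 in wild-type and 6.41, 6.33 and 6.41 in knockout L-GMP. Its highest value was in knockout whole leukemia 2, the same array in which Atm and Atr were lowest. The Chek2 differences, 0.15 and -0.12, were smaller than their standard errors (0.25) or close to them, and the sign of both, and that of Chek1 in whole leukemia, turned when single arrays were left out.

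The checkpoint clamp held the member of lowest p in whole leukemia. Rad9a is a subunit of the ring of Rad9a, Hus1 and Rad1 that Rad17 loads onto damaged DNA and through which Atr is activated. It measured 7.43, 7.52 and 7.35 in wild-type whole leukemia and 6.93, 6.94 and 7.01 in the knockout, and 7.46, 7.29 and 7.35 in wild-type and 7.40, 7.37 and 7.42 in knockout L-GMP. All 3 knockout whole arrays therefore lay below the other 9 arrays, with a narrow spread in every group. The difference in whole leukemia was -0.47 (0.72-fold, SE 0.08, 95% interval -0.65 to -0.30, limma adjusted p = 0.478), against 0.03 in L-GMP. The genotype difference differed between populations by 0.50 (SE 0.11, 95% interval 0.25 to 0.75), with an adjusted p of 1.0 by limma. Rad9a was 1 of 2 members (4.76%) whose whole leukemia arrays were apart in the lower direction, as were 5.73% of all genes.

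All 4 clamp and loader members were lower by mean in knockout whole leukemia (median -0.27), and 2 of 4 in knockout L-GMP, but the arrays of the other 3 overlapped between genotypes. Hus1 measured 6.57, 6.71 and 6.77 in wild-type and 7.16, 6.79 and 5.96 in knockout whole leukemia, with the highest and the lowest value both in the knockout. Rad1 measured 6.94, 7.08 and 7.08 in wild-type and 7.28, 6.11 and 6.64 in knockout whole leukemia, and 7.10, 7.57 and 7.45 in wild-type and 6.94, 7.60 and 7.22 in knockout L-GMP. Its whole leukemia difference of -0.36 (SE 0.27) overlapped between genotypes, against -0.11 in L-GMP, and a second Rad1 probe set gave -0.39 and 0.08. Rad17, the loader, measured 6.97, 6.88 and 6.84 in wild-type and 6.88, 6.53 and 6.72 in knockout whole leukemia, and 6.76, 7.04 and 6.67 in wild-type and 6.98, 6.90 and 6.83 in knockout L-GMP. Its differences were -0.19 and 0.08 (SE 0.12 for each), of opposite sign and within overlapping arrays.

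**Figure D3:**
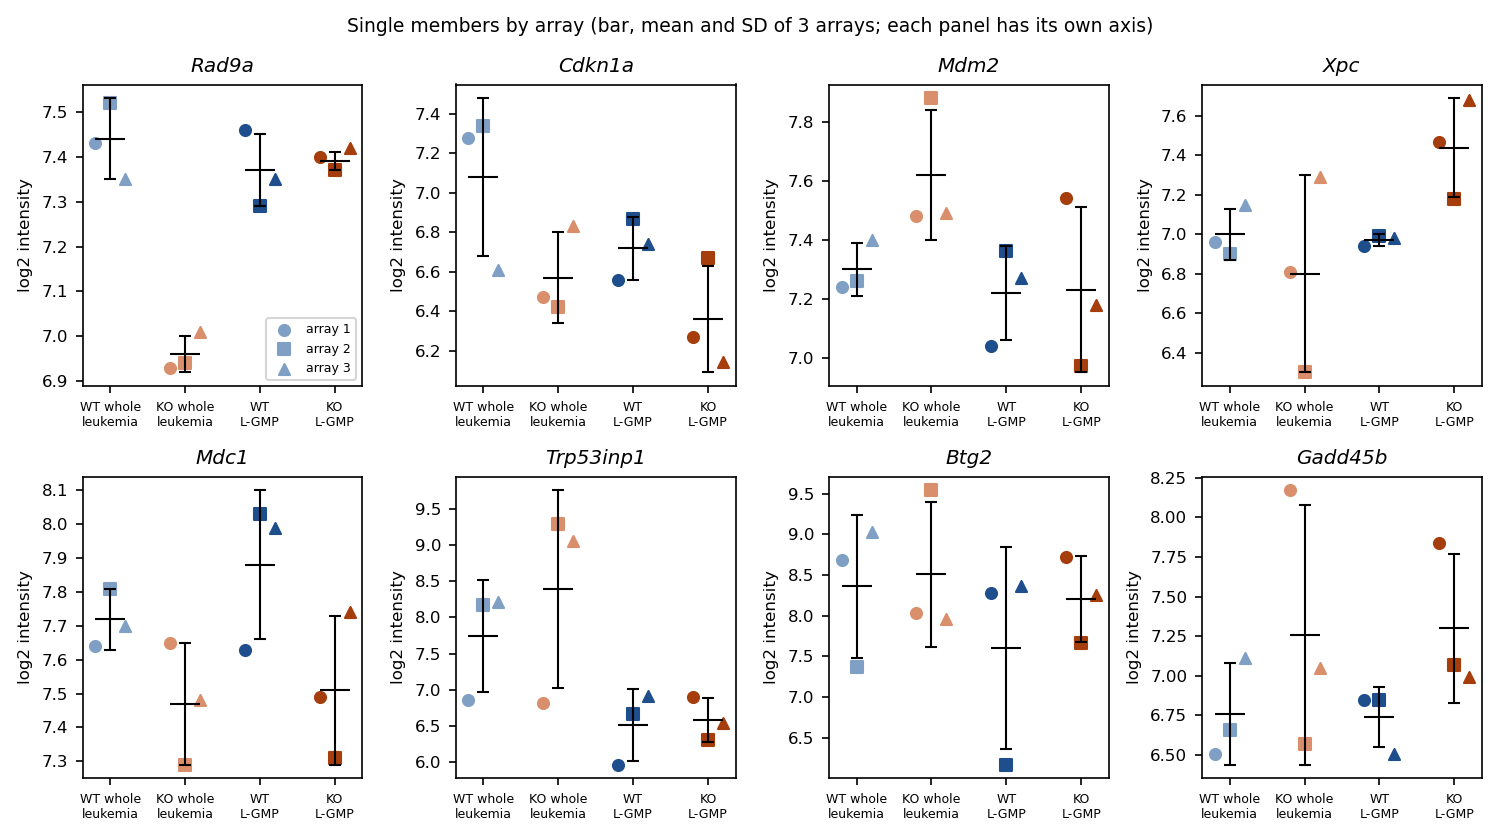
Log2 intensity of single members in every array, 1 point per array, with the 4 groups along the horizontal axis and bars for the mean and SD of 3 arrays. The 3 knockout whole arrays of Rad9a (6.93 to 7.01) lie below the other 9 arrays (7.29 to 7.52). Genotypes are apart for Rad9a and Mdm2 in whole leukemia and for Xpc and Gadd45b in L-GMP, and overlap elsewhere in the panels.

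The break recognition members were lower by mean in knockout whole leukemia for 6 of 6 genes, and in knockout L-GMP for 4 of 6. Mdc1, the adaptor that holds repair factors on marked chromatin, had the lowest unadjusted p of any member in L-GMP. It measured 7.63, 8.03 and 7.99 in wild-type and 7.49, 7.31 and 7.74 in knockout L-GMP, and 7.64, 7.81 and 7.70 in wild-type and 7.65, 7.29 and 7.48 in knockout whole leukemia. The L-GMP difference was -0.37 (0.772-fold, SE 0.15, limma adjusted p = 1.0), and the array ranges met, since knockout L-GMP 3 lay above wild-type L-GMP 1. Mdc1 was thus low in knockout L-GMP 1 and 2 and not in the array with the lowest repair median.

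Trp53bp1, which steers breaks toward end joining, measured 6.35, 6.40 and 6.36 in wild-type and 6.38, 6.36 and 6.07 in knockout whole leukemia, and 6.28, 6.46 and 6.39 in wild-type and 6.49, 6.34 and 6.74 in knockout L-GMP. It was highest in knockout L-GMP 3 and lowest in knockout whole leukemia 3, with a genotype difference that differed between populations by 0.24 (SE 0.17). Parp1, which marks strand breaks with poly(ADP-ribose), measured 8.02, 7.71 and 7.53 in wild-type and 7.59, 6.57 and 6.87 in knockout whole leukemia, and 7.67, 7.99 and 8.37 in wild-type and 7.48, 8.41 and 7.23 in knockout L-GMP. Its whole leukemia difference of -0.74 (0.597-fold, SE 0.34, limma adjusted p = 0.829) was the most negative of any member there. Knockout whole leukemia 1 overlapped the wild type for Parp1 and the other 2 knockout arrays did not. Rad50 and Nbn, partners in the complex that first binds broken ends, had means of 7.82 ± 0.28 (mean ± SD, n = 3) and 7.18 ± 0.21 in wild-type whole leukemia and 7.28 ± 0.60 and 6.77 ± 0.27 in the knockout. In L-GMP Rad50 had means of 8.09 ± 0.35 and 7.62 ± 0.52, and Nbn of 7.05 ± 0.19 and 7.09 ± 0.51. Parp2, a second strand-break polymerase, had differences of -0.36 in whole leukemia and -0.06 in L-GMP, and every one of these overlapped between genotypes.

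The homologous recombination, Fanconi and helicase members were lower by mean in knockout L-GMP for 6 of 6 and in knockout whole leukemia for 3 of 6. Brca2, a central gene of homologous recombination, with an E2F site in the promoter shown above, measured 6.89, 6.97 and 6.80 in wild-type and 7.14, 6.93 and 5.55 in knockout whole leukemia, and 6.84, 7.25 and 7.24 in wild-type and 6.87, 7.40 and 5.26 in knockout L-GMP. Its negative differences, -0.34 and -0.60, rested on knockout whole leukemia 3 and knockout L-GMP 3, the arrays with the lowest G2/M medians, and the other 4 knockout arrays lay among or above the wild type. Fancd2, the central Fanconi protein, had the same low arrays, at 6.96, 6.83 and 5.64 in knockout whole leukemia and 6.97, 7.10 and 6.00 in knockout L-GMP against 6.80 to 7.12 in the wild-type arrays. Palb2, which joins Brca1 to Brca2, measured 5.67, 5.90 and 5.5 in wild-type and 5.58, 5.21 and 5.25 in knockout whole leukemia, and 5.56, 5.99 and 6.05 in wild-type and 5.70, 5.65 and 5.34 in knockout L-GMP. Its arrays overlapped in both populations, with differences of -0.34 and -0.30 (SE 0.17 for each, limma adjusted p = 0.829 and 1.0).

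Brca1 and the helicase Blm had a wide spread in knockout whole leukemia. Brca1 measured 6.65, 6.57 and 6.10 in wild-type and 6.77, 7.66 and 5.56 in knockout whole leukemia, and Blm 7.20, 7.43 and 7.0 in the wild type and 7.57, 8.49 and 6.46 in the knockout. Both were highest in knockout whole leukemia 2, where G2/M genes were also highest, and lowest in knockout whole leukemia 3, where these were lowest. Wrn, the helicase lost in Werner syndrome in humans, measured 7.56, 7.74 and 7.88 in wild-type and 8.05, 8.22 and 7.80 in knockout whole leukemia, and 7.95, 8.02 and 8.01 in wild-type and 8.14, 7.75 and 7.61 in knockout L-GMP. Its difference was 0.30 in whole leukemia and -0.16 in L-GMP, and the 2 differed by -0.46 (SE 0.22, limma adjusted p = 1.0).

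No end joining or base repair member had genotypes apart in either population. Lig4, the ligase that seals joined ends, measured 5.34, 5.17 and 5.25 in wild-type and 5.03, 5.19 and 5.11 in knockout whole leukemia, and 5.17, 5.32 and 5.16 in wild-type and 5.17, 4.86 and 4.98 in knockout L-GMP. The L-GMP difference of -0.22 (SE 0.10, limma adjusted p = 1.0) came from knockout L-GMP 2 and 3. Xrcc5, a subunit of the Ku end-binding pair, was read from a dim probe set and stood at 4.77, 6.07 and 4.80 in knockout L-GMP, with knockout L-GMP 2 above every other array (4.54 to 6.07 over the 12). Its differences of 0.45 in L-GMP and 0.37 in whole leukemia (SE 0.32 for each) were the most positive of any repair member, with overlap between genotypes. Xrcc6, the other Ku subunit, had differences of -0.03 and -0.01, the scaffold Xrcc1 of -0.19 and -0.13, and the oxidized-guanine glycosylase Ogg1 of -0.06 and -0.03 in whole leukemia and L-GMP. Msh6, a mismatch recognition protein, measured 6.72, 6.80 and 6.71 in wild-type and 7.16, 6.78 and 6.63 in knockout whole leukemia, and 6.86, 7.11 and 6.96 in wild-type and 6.99, 7.25 and 6.73 in knockout L-GMP, with overlap of the genotypes in both.

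Of the p53 regulators, Mdm2 was the 1 p53 member (2.38% of all members) whose knockout whole arrays lay above all wild-type arrays, as did those of 5.46% of all genes. Mdm2, the ubiquitin ligase of p53 and itself a p53 target, measured 7.24, 7.26 and 7.40 in wild-type and 7.48, 7.88 and 7.49 in knockout whole leukemia, and 7.04, 7.36 and 7.27 in wild-type and 7.54, 6.97 and 7.18 in knockout L-GMP. The difference was 0.32 (SE 0.16, 95% interval -0.03 to 0.68, limma adjusted p = 0.829) in whole leukemia and 0.01 in L-GMP, where its sign turned when wild-type L-GMP 1 or knockout L-GMP 1 was left out. Mdm4, the second inhibitor of p53, had means of 8.57 ± 0.04 and 8.77 ± 0.19 in whole leukemia and 8.63 ± 0.13 and 8.76 ± 0.31 in L-GMP, wild type first. Ppm1d, a phosphatase that ends the damage signal, had means of 6.61 ± 0.06 and 6.84 ± 0.57 in whole leukemia and 6.73 ± 0.48 and 6.87 ± 0.18 in L-GMP. Both regulators overlapped between genotypes in both populations.

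The arrest genes of the p53 response differed in direction among themselves. Cdkn1a, the p21 inhibitor of cyclin-dependent kinases and the best known p53 target, measured 7.28, 7.34 and 6.61 in wild-type and 6.47, 6.42 and 6.83 in knockout whole leukemia, and 6.56, 6.87 and 6.74 in wild-type and 6.27, 6.67 and 6.14 in knockout L-GMP. Its mean was lower in the knockout in both populations, with differences of -0.50 (0.706-fold, SE 0.21, limma adjusted p = 0.827) and -0.36 (0.779-fold, SE 0.21, limma adjusted p = 1.0). The arrays overlapped each time, in whole leukemia through array 3 of each genotype and in L-GMP through knockout array 2. Ccng1, a cyclin induced by p53 whose promoter is shown above, had differences of -0.09 and -0.17, and Zmat3, an RNA-binding target, of 0.04 and -0.03.

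The Gadd45 genes are stress-induced partners of cyclin B kinase and of stress kinases. Gadd45b measured 6.51, 6.66 and 7.11 in wild-type and 8.17, 6.57 and 7.05 in knockout whole leukemia, and 6.85, 6.85 and 6.51 in wild-type and 7.84, 7.07 and 6.99 in knockout L-GMP. The knockout L-GMP arrays all lay above the wild-type ones, as did those of 5.82% of all genes, with a difference of 0.56 (SE 0.37, limma adjusted p = 1.0), and knockout array 1 was the highest in both populations. Gadd45g measured 5.32, 5.55 and 5.54 in wild-type and 5.13, 6.48 and 5.66 in knockout whole leukemia, and 5.39, 5.51 and 5.19 in wild-type and 5.18, 5.17 and 5.43 in knockout L-GMP. Its 1 high value was in knockout whole leukemia 2, and without that array the whole leukemia difference went from 0.28 to -0.08.

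Btg2, an antiproliferative gene that p53 and growth stimuli both induce, had the widest range of any member. It measured 8.69, 7.37 and 9.03 in wild-type and 8.03, 9.54 and 7.96 in knockout whole leukemia, and 8.28, 6.17 and 8.36 in wild-type and 8.72, 7.67 and 8.26 in knockout L-GMP. The lowest Btg2 arrays in the wild type were number 2 in both populations. In the same arrays the median of 15 immediate early genes, the first responders to stimulation, stood at 6.55 and 6.54, below the 7.04 to 8.04 of the other 10 arrays. Immediate early genes were higher by mean in the knockout for 14 of 15 in L-GMP and 12 of 15 in whole leukemia, and their part in the Btg2 and Gadd45b values was not tested.

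Among p53 targets that act in repair, Xpc, the damage sensor of nucleotide excision repair, had a higher mean in knockout L-GMP. It measured 6.94, 6.99 and 6.98 in wild-type and 7.47, 7.18 and 7.68 in knockout L-GMP, and 6.96, 6.90 and 7.15 in wild-type and 6.81, 6.30 and 7.29 in knockout whole leukemia. The L-GMP arrays were apart, with a difference of 0.48 (1.39-fold, SE 0.22, 95% interval -0.00 to 0.95) that did not pass adjustment (limma adjusted p = 1.0). In whole leukemia it was -0.20, and the test of the difference between populations gave 0.68 (SE 0.30, limma adjusted p = 1.0). Polk, a polymerase that copies past lesions, measured 6.79, 6.59 and 6.68 in wild-type and 6.66, 5.68 and 6.35 in knockout whole leukemia, and 6.71, 6.69 and 6.78 in wild-type and 6.39, 6.32 and 6.87 in knockout L-GMP. Rrm2b, the p53-induced subunit of ribonucleotide reductase, measured 6.45, 6.42 and 6.55 in wild-type and 6.26, 5.94 and 6.48 in knockout whole leukemia, and 6.10, 6.45 and 6.20 in wild-type and 6.41, 6.02 and 6.14 in knockout L-GMP. Knockout whole leukemia 2 was the lowest of the 12 arrays for both Polk and Rrm2b, and genotypes overlapped for both in either population.

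The apoptosis members gave small differences. Aen, a p53-induced nuclease of dying cells, measured 5.92, 5.64 and 5.56 in wild-type and 5.5, 5.26 and 5.52 in knockout whole leukemia, so that its arrays were apart by a small gap, with a difference of -0.28 (SE 0.18, limma adjusted p = 0.853). In L-GMP the Aen difference was -0.12 and the arrays overlapped. Phlda3, a p53-induced inhibitor of Akt, had differences of -0.07 and -0.14. Eda2r stayed within 4.49 to 4.68 on all 12 arrays, below the level at which genes were tested.

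**Figure D4:**
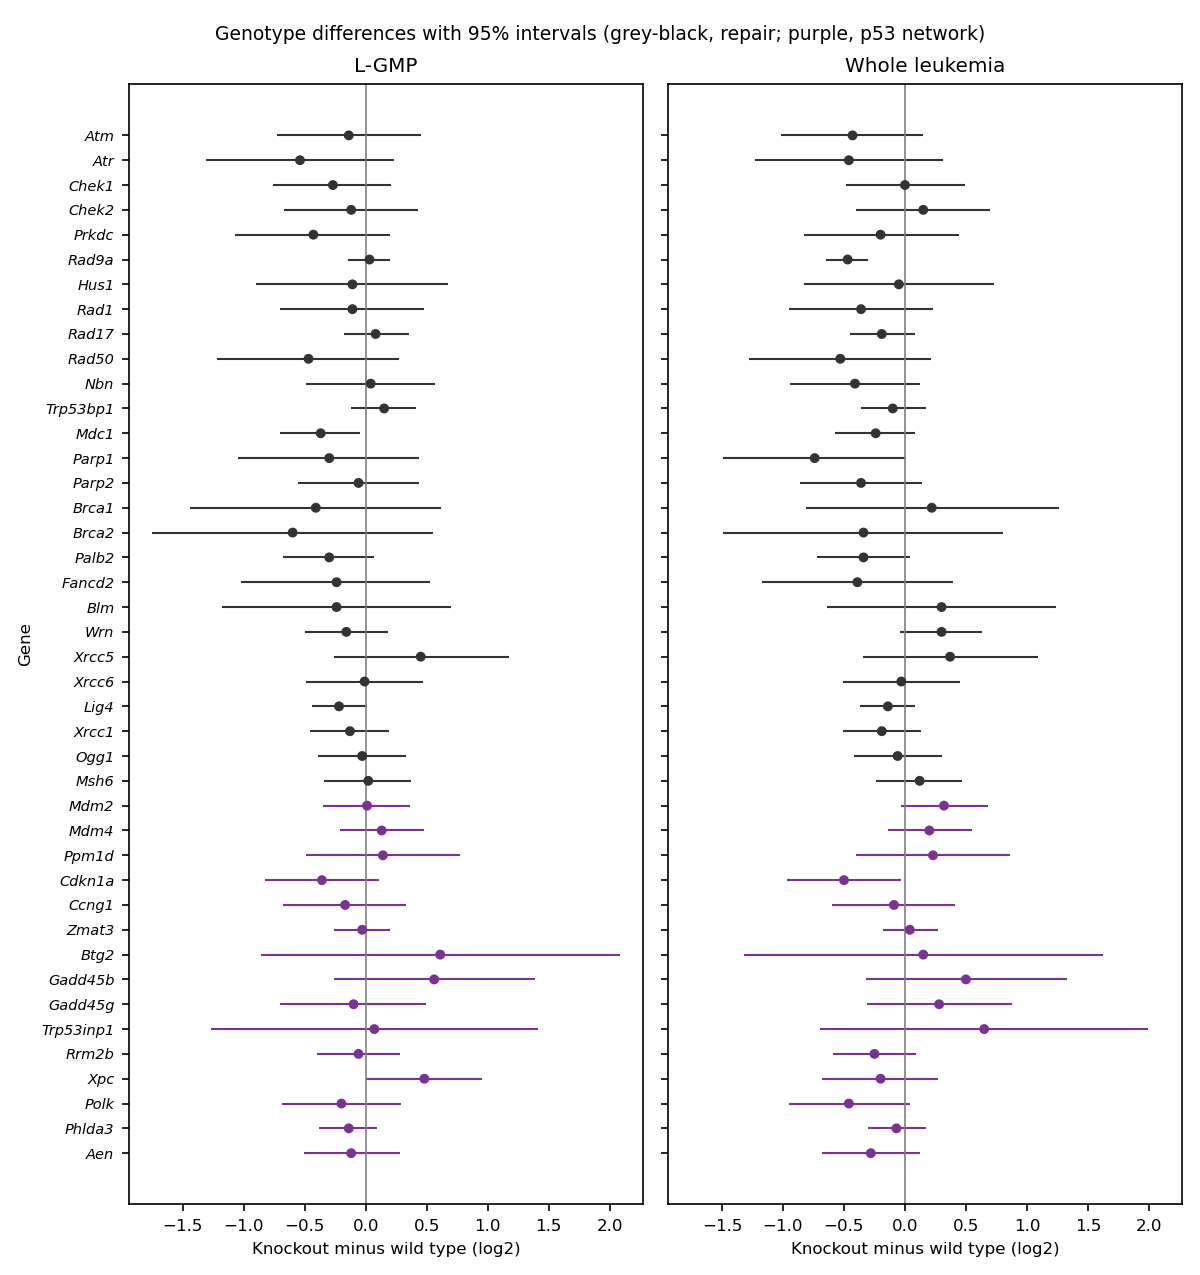
Difference between knockout and wild type for each tested member in L-GMP and in whole leukemia, in log2 units, with the 95% interval of limma as a bar and a line at 0. The points of 21 of 27 repair members in L-GMP and 20 of 27 in whole leukemia lie below 0, and those of the 15 p53 members lie on both sides.

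Between populations of the same genotype, repair members were mostly higher in L-GMP than in whole leukemia and p53 members mostly lower, and again none passed the test. In the wild type 22 of 27 repair members were higher in L-GMP, with a median difference of 0.21 (48.8% of all genes, median near 0), and 10 of 15 p53 members were lower (51.2% of all genes), with a median of -0.05. In the knockout, 20 of 27 repair members were higher (median 0.19, 52.4% of all genes) and 10 of 15 p53 members lower (median -0.05, 47.6% of all genes). The 2 genotypes of this comparison share no arrays. By limma 0 of 42 members were called in the wild type and 0 of 42 in the knockout, where 0% of all genes were called in either. At an unadjusted p under 0.05 there were 0 members in the wild type (2.5% of all genes) and 5 in the knockout (11.9% of members against 7.39% of all genes).

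In the wild type, 6 of 27 repair members (22.2%) had all L-GMP arrays above all whole leukemia arrays, as did 4.89% of all genes. These were Atm, Prkdc, Hus1, Rad1, Wrn and Msh6, whose values by array are given above for all but Prkdc in whole leukemia (6.52, 6.48 and 6.45) and Hus1 in L-GMP (6.77, 7.24 and 6.99). Their differences lay between 0.23 (Msh6, SE 0.16) and 0.35 (Atm, SE 0.27). The gap was narrow for some: the nearest arrays were equal to 2 decimals for Hus1 (6.77), and stood at 6.35 and 6.34 for Atm and at 7.10 and 7.08 for Rad1. In the knockout only Rad9a among repair members and Aen among p53 members were apart in that direction (5.49% of all genes). All 19 G1/S genes and 20 of 21 G2/M genes were also higher by mean in wild-type L-GMP, with medians of 0.22 and 0.18, and 49 of 66 other repair genes were (median 0.14). Arrays were apart in that direction for 5 of 19 G1/S genes, 12 of 66 other repair genes and 0 of 21 G2/M genes. In the knockout 12 of 19 G1/S genes were higher in L-GMP (median 0.09) and 16 of 21 G2/M genes were lower (median -0.15). The part of these genes in the repair values was not tested.

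Trp53inp1, a p53-induced gene of arrest and autophagy, gave the largest difference of any member between populations. It measured 6.85, 8.17 and 8.21 in wild-type and 6.81, 9.30 and 9.06 in knockout whole leukemia, and 5.96, 6.66 and 6.91 in wild-type and 6.90, 6.30 and 6.54 in knockout L-GMP. Whole leukemia was higher on 4 of its 6 arrays, and number 1 of each genotype lay near the L-GMP level. The differences were -1.23 (SE 0.61, limma adjusted p = 1.0) in the wild type and -1.81 (0.285-fold, SE 0.61, limma adjusted p = 0.671) in the knockout. Without knockout whole leukemia 1 the latter was -2.60, with an adjusted p of 0.0515 by limma. With that array left out, 40 of 17749 genes were called in this comparison, against 0 with all arrays. The neutrophil marker median by array was 8.06, 7.43 and 9.96 in wild-type and 8.06, 11.59 and 10.27 in knockout whole leukemia. It was likewise high in wild-type array 3 and knockout arrays 2 and 3, but lowest in wild-type array 2, where Trp53inp1 was high (8.17). The part of neutrophil genes in the Trp53inp1 values was not tested.

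In the knockout the members of lowest p were Rad9a, higher in L-GMP by 0.43 (SE 0.08), and Xpc, by 0.65 (SE 0.22). With Trp53inp1, Atm and Mdm2 they made up the 5 members at an unadjusted p under 0.05 by limma. Atm (0.64) and Rad1 (0.58), which just missed that level, were higher and Mdm2 (-0.39) lower. Rad9a, Xpc, Atm, Rad1 and Mdm2 all had a limma adjusted p of 0.671 or above. The wild-type differences of the same genes were -0.07 for Rad9a, -0.03 for Xpc, 0.35 for Atm, 0.34 for Rad1 and -0.07 for Mdm2. Cdkn1a was lower in L-GMP in both genotypes (-0.36 and -0.21), with overlap. Rrm2b was lower in wild-type L-GMP by mean (-0.22, SE 0.15), also with overlap.

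Whether the genotype difference itself differed between populations was tested as an interaction, and 0 of 42 members were called by limma (0% of all genes). At an unadjusted p under 0.05 there were 2 members, Rad9a and Xpc (4.76% of members against 2.06% of all genes). Repair members had a median interaction of 0.03, with 15 of 27 above 0 (54.8% of all genes), and p53 members one of -0.07, with 8 of 15 below 0 (45.2% of all genes). By median, the members varied more among replicates than all genes tested: the median pooled SD within groups was 0.32 for repair members and 0.29 for p53 members, against 0.19 for all genes tested. Single members ranged from 0.06 (Rad9a) to 0.92 (Btg2), and some, such as Lig4 (0.11) and Mdc1 (0.18), lay below the median of all genes.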

How the data were processed

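The 12 arrays hold RNA from sorted leukemia cells. The values are array intensity on a linear scale, as the authors deposited them, 1 per probe set. NuGEN kits were used for amplification and biotin labelling, per the labels' protocols. For the deposited intensity values, the sources used here give no software, background correction or normalization. Array medians lay between 36.9 and 39.3, and no further normalization was applied. Values were taken as log2 with no added constant.

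Of 33794 probe sets, 23521 have 1 symbol in the platform annotation, 1814 several and 8459 none. Each gene kept its brightest single-symbol probe set. Genes under a mean log2 of 4.72 (the lowest 25% of all probe sets) were not tested, which left 17749 of 22180 genes. One mean per group was fitted over all 12 arrays with limma 3.58.1 (R 4.3.3, statmod 1.5.0), two-sided, with Benjamini-Hochberg adjustment over all genes tested. With 3 arrays a group, their number limits the precision (median standard error between 2 groups 0.153 over all genes tested and 0.22 over the members). The code was tested on simulated arrays. Probe set sequences were not used, and member promoters came from RefSeq (GRCm38.p6).

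Members and gene lists were chosen with earlier results of these data known. Values by array are given for the damage kinases, the main p53 regulators and targets, the Gadd45 genes and the 6 members of lowest p in each comparison. Others are given as means, ranges or differences, some with arrays where they were apart or where a single array decided them, chosen after seeing their values. Lists are described by counts and medians without a test. Same-numbered wild-type arrays of the 2 populations deviated together (r = 0.36, 0.62 and 0.30). The knockout ones did so less for numbers 1 and 2 (0.13 and 0.09) but not for number 3 (0.43). The labels do not say what the number marks. Alternatives covered the constant before log2, normalization, the filter, the probe set rule, array weights, a replicate block and each array left out.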

Additional observations from a re-analysis of the deposited data

How the results depend on the processing

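Over 24 alternative settings, 0 members were called in each of the 5 comparisons, and the lowest adjusted p of any member by limma was 0.0515 (Trp53inp1, L-GMP against whole leukemia in the knockout, without knockout whole leukemia 1). There 40 of all 17749 genes were called, against at most 4 genes in any other setting and comparison. Across the 24 settings 237 values of list medians moved by less than the spread between replicates and 1 moved by more, the p53 interaction median, which was -0.07 with all arrays and 0.11 without both number-3 knockout arrays. That setting was chosen after seeing the data, as was leaving out the 2 knockout arrays with most lowest values. For single members 1008 values kept their sign and 17 turned. All 17 were differences between genotypes, the largest as reported being 0.28 (SE 0.27) for Gadd45g in whole leukemia. In L-GMP, Atm was 0.03 in both settings chosen after seeing the data and lay between -0.28 and 0.03 with each array left out in turn. In the same way Chek2 lay between -0.24 and 0.05, Mdm2 between -0.14 and 0.14 and Rad9a between -0.01 and 0.07. In whole leukemia, Chek1 was -0.11 with array weights and -0.24 to 0.17 with each array left out, Chek2 was -0.09 with array weights, -0.12 without the 2 knockout arrays with most lowest values and -0.12 to 0.34 with each array left out, and Gadd45g was -0.08 without those 2 arrays and -0.08 to 0.60 with each array left out. The cause was not tested. The repair median lay between -0.26 and -0.05 in L-GMP and between -0.31 and -0.14 in whole leukemia with each array left out (-0.32 with array weights), and the p53 median changed sign in both (-0.09 to 0.02 and -0.08 to 0.08). With the replicate number as a block, by number alone or by genotype and number, 0 members were called in each comparison. Each group held 1 array of each number, so a block could alter the estimated spread but no difference. The list medians were therefore the same by design (0.21 for repair members between populations of the wild type). So were those with a trended and robust variance or with the compared groups alone, and such unchanged values are among the 237 and 1008 above. A fit to the compared groups alone gives no value for the interaction. With 3 arrays a group, differences near the median standard error of 0.153 over all genes were not detectable. For the members the median was 0.22 between 2 groups and 0.32 for the interaction. Far larger differences were not called either, such as -0.74 for Parp1 in whole leukemia and -1.15 for Prkaa1 in L-GMP. The lack of calls thus does not show that changes of such size were absent.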

Other observations

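Repair and p53 genes outside the 42 members tested showed the population comparison in other pathways, again with none called by limma. In the wild type, the other repair genes of lowest p were Ung, the uracil glycosylase (0.57 higher in L-GMP), Fancb (0.40) and Rnf168, a ubiquitin ligase at breaks (0.28). Ung measured 5.55, 6.00 and 5.80 in wild-type whole leukemia and 6.67, 6.36 and 6.03 in wild-type L-GMP. These arrays were apart by a narrow gap (6.03 against 6.00), as were those of 12 of 66 other repair genes and 4.89% of all genes. In the knockout, Ercc8, a gene of transcription-coupled repair, was 0.50 higher in L-GMP, while the p53 targets Fas and Sesn2, a stress-induced inhibitor of growth signaling, were -1.0 and -0.50. Sesn2 measured 5.39, 6.09 and 5.71 in knockout whole leukemia and 5.25, 4.85 and 5.59 in knockout L-GMP, with overlap.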
